A study of Glycine max with 4 samples.

Results

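Broad GmWRI1-bound regions that both biological replicates of cot stage soybean embryos shared, and that lie toward the ends of the chromosomes, were described from their shape, their partners in the other replicate and their spacing. The regions were chosen by measured values: a region belonged to this set when it was at least 800 bp wide in the peak list of ChIP replicate 1, was overlapped by at least 1 bp by a region of replicate 2, and had its midpoint in the first or last 0.3 of one of the 20 chromosomes. The set holds 335 of the 7042 regions of replicate 1. It was set against the 1328 shared regions under 800 bp in the same chromosome parts, called narrower shared regions here. The rule used the width in replicate 1, the overlap and the position, so these, and the other replicate 1 values, are given as a description and support nothing.

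WRINKLED1 (WRI1) is a plant transcription factor with AP2 DNA-binding domains, and it turns on genes of glycolysis and fatty acid synthesis in developing seeds. It is best known from Arabidopsis, where mutant seeds store little oil. GmWRI1-A and GmWRI1-B are soybean homologs of it, and a DNA element named the AW Box is a sequence that WRI1 proteins bind. In ChIP-Seq, fragments of crosslinked chromatin pile up around the DNA a factor contacts. A peak caller joins neighboring enriched positions into a region and marks the position with the most fragments as its summit. Binding at a lone site gives a region about as wide as the fragments on either side of it, so the width of a region, the place of its summit and the way it splits in a second replicate describe how the signal is laid out.

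The study had 2 GmWRI1 ChIP libraries from Williams 82 embryos at the cot stage, dissected out of seeds measuring 3.5 to 4.5 mm, and 2 libraries of input chromatin from the same stage and cultivar. No mutant, transgene or treatment was part of the design. The study notes that its ChIP-Seq data of this stage fell short of the ENCODE quality limits, which bears on every enrichment and replicate difference given here. The antibody was made against a GmWRI1-A peptide and the study states that it also binds GmWRI1-B, so the signal of these proteins cannot be told apart. Each peak list was called against input, so the inputs appear only inside the fold enrichment. Positions are on genome build Wm82.a2.v1 and count from 1. Fold enrichment is the peak caller's ratio of ChIP fragments to the local input background at the summit. Genes, promoters and DNA motifs at these positions were not analysed here.

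In the outer parts of the chromosomes, 335 of 511 broad replicate 1 regions were overlapped in replicate 2 (65.6%), as were 1328 of 5474 narrower ones (24.3%). Over all 7012 replicate 1 regions of the 20 chromosomes the share was 28.0%. The overlap is part of the rule, so nothing is read from these shares. The local background differed between the lists, and its lowest value, which stands for the genome average, was 3.37 fragments in replicate 1 and 2.40 in replicate 2. The parts of this difference in background and of read depth in the comparisons of the replicates were not tested. With 2 replicates no difference between them could be tested, and regions of 1 pair of libraries are not independent replicates. For that reason the broad and the narrower regions are set side by side with 95% intervals over regions (Wilson for shares, exact binomial for medians, exact Poisson for fragment numbers), which cover counting error only, and no test is given.

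The widest regions show the layout best. The broadest lies at Chr06:8335907-8339967 and spans 4061 bp. Its summit had 65 fragments in replicate 1 (50.2 to 82.8) and a fold enrichment of 13.4. Replicate 2 split the same stretch into 4 regions with fold enrichments of 5.15, 7.70, 7.01 and 5.00 from low to high coordinate. The strongest of these 4 had its summit 420 bp from that of replicate 1, whereas the next strongest had its summit 30 bp away. These partners had 28 fragments (18.6 to 40.5) and 25 fragments at their summits, so which of them ranks highest is within counting error.

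A different layout was seen at Chr14:46831676-46834428, the region with the highest mean fold enrichment of the set. It is 2753 bp wide, and its summit lies 2304 bp from the low-coordinate edge and 449 bp from the high-coordinate edge. Replicate 2 again had 4 regions. The one at the summit was 1647 bp wide with a fold enrichment of 46.8, and the remaining 3 lay toward the longer side with 4.82, 6.18 and 4.08. The partner with 4.82 crossed the low-coordinate edge, and its summit lay just outside the region. The summits of the replicates were 21 bp apart. A dominant peak with weaker steps along its longer side was also seen at Chr12:35514769-35517840, where replicate 2 had fold enrichments of 4.62, 4.08 and 36.2 from low to high coordinate, and at Chr16:32378343-32380396, where they were 5.29, 4.39, 9.12 and 16.2.

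Other widely split regions had no dominant peak. At Chr06:2111892-2114337 the 4 replicate 2 regions had fold enrichments of 5.94, 5.28, 4.89 and 3.83, each on 17 to 21 fragments at its summit. At Chr16:7616407-7619106 the 3 replicate 2 regions had 6.04, 5.59 and 4.93, and the strongest of them had its summit 607 bp from that of replicate 1. In both regions the replicate 2 fold enrichments lay close together and the fragment numbers were small, so which of them ranks highest rests on few fragments.

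**Figure D1:**
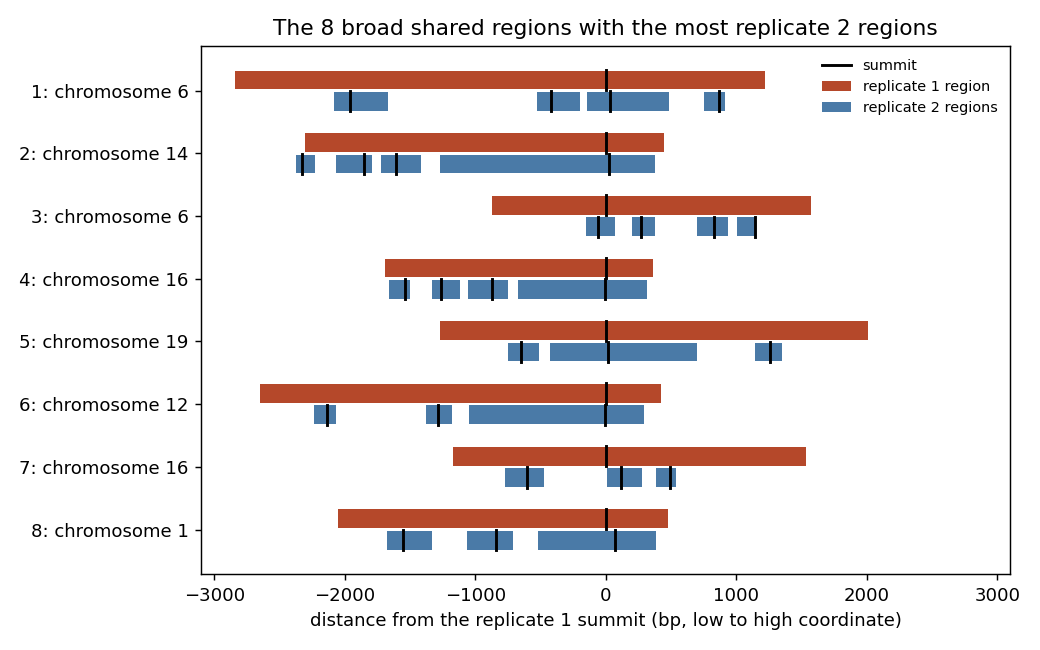
The 8 broad shared regions with the most replicate 2 regions, drawn against the distance in bp from the replicate 1 summit, with the replicate 1 region above and the replicate 2 regions below it and black ticks at the summits. In region 2 (chromosome 14) the replicate 2 region at the summit is 1647 bp wide. On its longer side 3 smaller ones follow, and the outermost crosses the edge of the replicate 1 region. In region 3 (chromosome 6) all 4 replicate 2 regions are 151 to 245 bp wide.

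Across the set, 258 of 335 broad regions had 1 replicate 2 partner, 62 had 2, 11 had 3 and 4 had 4, which makes 431 partners. A share of 23.0% of the broad regions (77 of 335, 18.8% to 27.8%) had 2 or more partners, against 0.301% of the narrower shared regions (4 of 1328, 0.117% to 0.772%). The rule chose on width, and the number of partners moved with width. Within the set the share with 2 or more was 3.53% of 85 regions from 800 to 999 bp, 20.3% of 133 from 1000 to 1499 bp, 29.2% of 65 from 1500 to 1999 bp and 53.8% of 52 of at least 2000 bp. The median replicate 1 fold enrichment of these classes moved with it, at 11.5, 13.0, 29.0 and 40.6, and its part in the number of partners was not tested.

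Where a broad region had several partners, the summits of neighboring partners were a median of 609 bp apart (524 to 742, 96 neighboring pairs), and the gap between their edges had a median of 152 bp (124 to 188). No gap between regions was under 52 bp in either list. The second strongest partner had a median of 0.713 times the fold enrichment of the strongest (0.573 to 0.785, range 0.128 to 1.00). Steep and even splits were thus both present. Apart from the partner nearest to the replicate 1 summit, 81 of 96 partners had their summit on the longer side of the region (84.4%, 75.8% to 90.3%). The longer side made up a median of 69.8% of the width of these regions. Because the partner nearest to the summit was set aside first and partners do not overlap, the shorter side had less room for further ones. Nothing is read from this share.

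The reverse split was rare in both sets. None of the 335 broad regions shared a replicate 2 partner with another replicate 1 region (0%, 0% to 1.13%). Of the 1328 narrower regions, 2 did (0.151%, 0.0413% to 0.547%). All 90 replicate 2 regions of at least 800 bp in the outer chromosome parts overlapped a region of the set, and none of the 90 overlapped more than 1 replicate 1 region. Replicate 2 partners mostly stayed inside the broad regions, which the rule chose for their width in replicate 1. A partner reached beyond the edge of 7 of 335 broad regions (2.09%, 1.02% to 4.25%) and of 331 of 1328 narrower ones (24.9%, 22.7% to 27.3%). A wide region is less readily exceeded by a partner, so nothing is read from the difference between these shares.

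The summit of a broad region was often off its middle. Its distance from the nearer edge had a median of 33.7% of the width (32.3% to 35.4%), against 44.1% in the narrower shared regions (43.8% to 44.6%), where 50% would be the exact middle. In base pairs, the nearer edge was a median of 426 bp away in the broad regions and 164 bp in the narrower ones. The farther edge was a median of 872 bp away in the broad regions and 215 bp in the narrower ones. The farther side was thus a median of 1.97 times as long as the nearer side in the broad regions (1.82 to 2.10) and 1.27 times in the narrower ones (1.24 to 1.28).

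The middle 20% of the width held the summit in 110 of 335 broad regions (32.8%, 28.0% to 38.0%) and in 960 of 1328 narrower ones (72.3%, 69.8% to 74.6%). The outermost 25% of the width on either side held it in 91 broad regions (27.2%, 22.7% to 32.2%) and in 31 narrower ones (2.33%, 1.65% to 3.29%). Even so, the outermost 10% on either side were nearly empty. On the low-coordinate side they held no summit of the 335 broad regions (0%, 0% to 1.13%), and on the high-coordinate side they held 1. Within the set, the narrowest width class had the most central summits. The median distance from the nearer edge was 38.3%, 34.0%, 32.1% and 31.9% of the width in regions of 800 to 999 bp, 1000 to 1499 bp, 1500 to 1999 bp and at least 2000 bp. In the same order, the middle 20% held the summit in 45.9%, 30.8%, 24.6% and 26.9% of the regions.

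**Figure D2:**
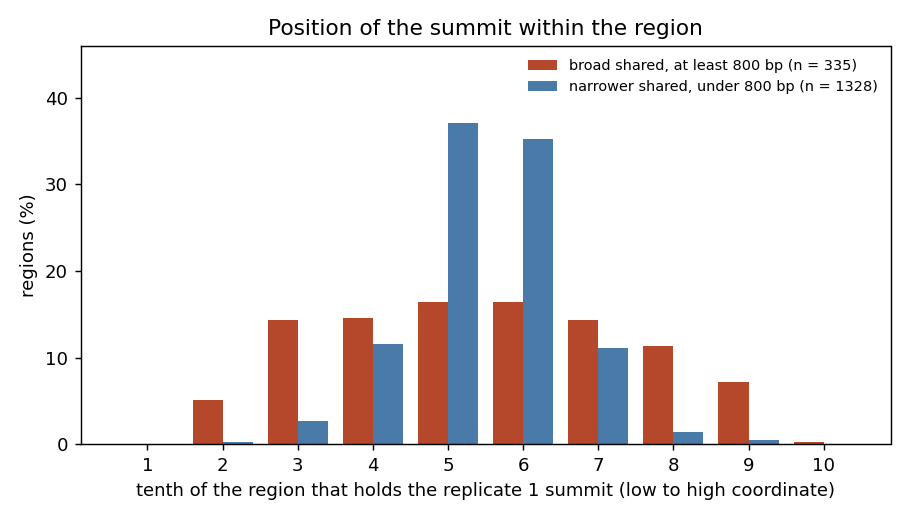
Share of regions (%) whose replicate 1 summit falls in each successive 10% of the width, from low to high coordinate, for 335 broad and 1328 narrower shared regions of the outer chromosome parts. The bars on either side of the middle stand at 16.4% each for the broad regions, against 37.1% and 35.2% for the narrower regions.

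Neither coordinate side was favored over the set as a whole. The summit lay on the low-coordinate side of the middle in 169 of 335 broad regions (50.4%, 45.1% to 55.8%) and in 687 of 1328 narrower ones (51.7%, 49.0% to 54.4%). The side was mostly the same in replicate 2, which the rule did not use for it. Of 225 broad regions with the summit outside the middle 20%, 167 had the replicate 2 summit on the same side of the middle of its own region (74.2%, 68.1% to 79.5%). Among the 166 of these with 1 partner the number was 124 (74.7%, 67.6% to 80.7%). This count gives the direction only, since it includes replicate 2 summits close to the middle. It was not made for the narrower regions, so it is not shown to be particular to the broad ones.

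Summits of broad regions were set apart by more than those of narrower regions. The distance between the replicate 1 summit and that of the best partner, the one with the highest fold enrichment, had a median of 56.0 bp in the broad regions (50 to 64) and 21 bp in the narrower ones (19 to 22). It was within 100 bp in 230 of 335 broad regions (68.7%, 63.5% to 73.4%) and in 1256 of 1328 narrower ones (94.6%, 93.2% to 95.7%). In 14 broad regions it was over 500 bp. The replicate 1 width, which the rule chose on, limits how far inside a region a partner summit can lie. The farther edge was a median of 872 bp from the summit in the broad regions and 215 bp in the narrower ones. The part of width in the summit distance was not tested. Of the 105 broad regions with a distance over 100 bp, 72 had no further partner, and 11 had another partner with its summit within 100 bp.

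The replicate 1 summit itself was still covered by a replicate 2 region in most of the set, in 293 of 335 broad regions (87.5%, 83.5% to 90.6%) and in 1290 of 1328 narrower ones (97.1%, 96.1% to 97.9%). The distance was smaller where the regions were strong. Where the replicate 1 fold enrichment was 40 or more, its median was 22.0 bp in 43 broad regions, and below 10 it was 89.5 bp in 82 broad regions. The narrower shared regions in the same classes had medians of 7 bp (24 regions) and 26.0 bp (769 regions). The number of fragments at the summit moved with it, with a replicate 2 median of 93.0 in the strong broad regions and 18.0 in the weak ones. Its part in the summit distance was not tested.

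Replicate 2 gave the same stretches as smaller regions. The narrowest region was 179 bp wide in the list of replicate 1 and 145 bp in that of replicate 2. The part of these lower limits in the width, coverage and splitting of partners was not tested. The best partner of a broad region was a median of 529 bp wide (463 to 577), and that of a narrower region 264 bp (256 to 268). The partner was thus wider for broad regions, though short of the replicate 1 width. Its width was a median of 0.412 times that of the broad region (0.374 to 0.444) and 0.726 times that of the narrower region (0.711 to 0.739). Among them, 89 of 335 broad regions had a best partner of at least 800 bp (26.6%, 22.1% to 31.5%), and 1 partner was wider than its broad region. All partners together covered a median of 46.1% of a broad region (42.3% to 49.5%) and 71.1% of a narrower one (69.8% to 72.4%). The coverage and the width ratio both have the replicate 1 width, which the rule chose on, as their base. Nothing is read from their difference between the sets. With the lists exchanged, the 90 wide replicate 2 regions had a median width of 1130 bp and their best replicate 1 partners 1934 bp. For the 1672 narrower replicate 2 regions these medians were 267 bp and 436 bp.

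Width in replicate 2 went with width in replicate 1 within the set. The share of best partners of at least 800 bp was 3.53% of the 85 regions from 800 to 999 bp, 10.5% of the 133 from 1000 to 1499 bp, 50.8% of the 65 from 1500 to 1999 bp and 75.0% of the 52 of at least 2000 bp. Spearman's rho between the widths was 0.518 across the 335 broad regions and 0.606 across the 1328 narrower ones, as a description over regions that share both libraries. At Chr01:5596796-5600531, 3736 bp wide, replicate 2 had 1 unbroken region of 2914 bp. At Chr02:10213815-10217509, 3695 bp wide, it likewise had 1 region of 2738 bp. Among regions of similar width, Chr10:37696405-37699775 spans 3371 bp and had a best partner of 1188 bp, and the broadest region of all had one of 329 bp.

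**Figure D3:**
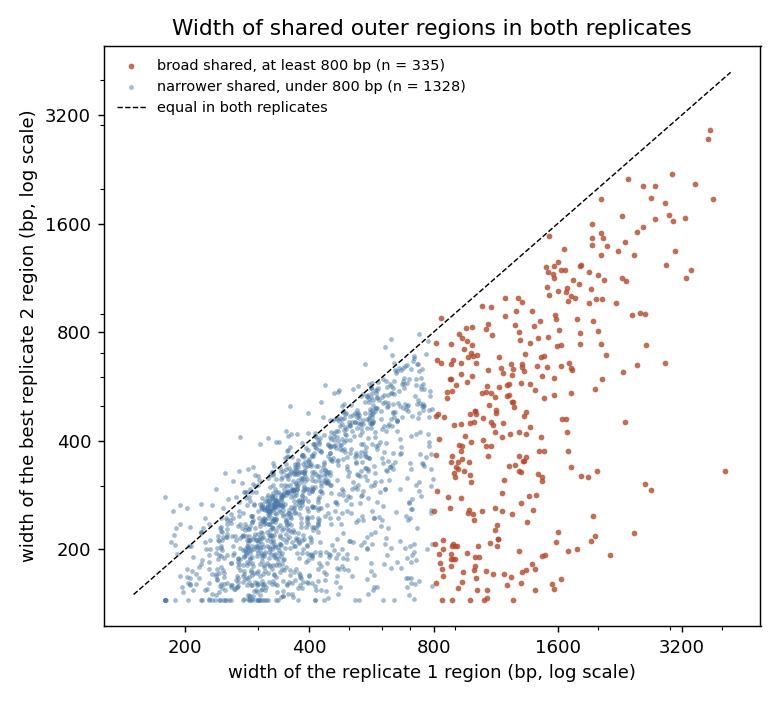
Width in bp of the best replicate 2 region against the width of the replicate 1 region for 335 broad and 1328 narrower shared regions (log axes, dashed line for equal widths). Broad regions lie below the line with 1 exception, and their best partners span 145 to 2914 bp.

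Enrichment of the broad regions was lower in replicate 2. The median fold enrichment was 15.8 in replicate 1 (13.6 to 18.6) and 7.20 at the best partner in replicate 2 (6.66 to 8.05). In the narrower regions these medians were 8.87 (8.51 to 9.16) for replicate 1, and 6.24 (6.04 to 6.41) for replicate 2. The replicate 2 value was below the replicate 1 value in 330 of 335 broad regions (98.5%, 96.6% to 99.4%) and in 1119 of 1328 narrower ones (84.3%, 82.2% to 86.1%). The median log2 ratio of replicate 2 over replicate 1 was -1.02 in the broad regions (-1.10 to -0.97) and -0.40 in the narrower ones (-0.43 to -0.37). Under 50% of the replicate 1 value was reached by 180 broad regions (53.7%) and by 150 narrower ones (11.3%). Both sets hold only regions that replicate 2 also called, which were 65.6% of the broad and 24.3% of the narrower outer regions. The fewest replicate 2 summit fragments were 12 in the broad and 13 in the narrower regions. Regions too weak in replicate 2 to be called are absent from these ratios. The part of this limit in the ratios, here and by class below, was not tested.

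The ratio of the broad regions was also the lower one within classes of replicate 1 fold enrichment. Below 10, the median log2 ratio was -0.68 in 82 broad regions and -0.24 in 769 narrower ones. This class was not alike in replicate 1, where the medians were 8.09 in the broad regions and 6.60 in the narrower ones, and its replicate 2 medians were 4.99 in the broad regions and 5.17 in the narrower ones. The 645 narrower regions of this class without high input background had a replicate 1 median of 7.01 and a median log2 ratio of -0.30. Between 10 and 20, the median replicate 2 fold enrichment was 6.34 in 113 broad regions and 8.38 in 365 narrower ones, with median log2 ratios of -1.09 and -0.65. Between 20 and 40, it was 11.6 in 97 broad regions and 17.5 in 170 narrower ones, with -1.31 and -0.66. At 40 and above, it was 25.1 in 43 broad regions and 33.9 in 24 narrower ones, with -1.02 and -0.34. The higher replicate 2 median of the broad regions over the whole set is therefore turned round when both sets are limited to regions that reached 10 in replicate 1, where it was 9.22 in the broad regions and 10.6 in the narrower ones.

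Because replicate 1 chose the broad regions, the comparison was also made with the lists exchanged. All 90 shared outer regions that were at least 800 bp wide in replicate 2 had a lower fold enrichment in replicate 2 than in replicate 1, with medians of 16.1 in replicate 2 and 38.0 in replicate 1 and a median log2 ratio of -1.11. Among the 1672 narrower replicate 2 regions the replicate 2 value was lower in 1458 (87.2%), with a median log2 ratio of -0.51. The order of the sets was the same whichever list set the width, but all 90 wide replicate 2 regions overlap a region of the set. For the broad side, the exchange thus measured part of the same regions in the same libraries and is not an independent check. This check was chosen after the ratio had been seen.

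The ranking within the set was nevertheless alike in the replicates, with a Spearman's rho of 0.887 between their fold enrichments across the 335 broad regions. Among the 8 regions with the highest mean fold enrichment, the replicates were closest to equal at Chr06:9750596-9753617, with a fold enrichment of 62.7 on 322 fragments in replicate 1 (288 to 359) and of 47.9 on 163 fragments in replicate 2 (139 to 190). They were farthest apart at Chr18:43424578-43428017, where the values were 65.6 on 286 fragments in replicate 1 (254 to 321) and 30.9 on 104 in replicate 2 (85.0 to 126). The mean of the replicates was 55.3 ± 10.5 (SD, n = 2) at the first and 48.3 ± 24.6 (SD, n = 2) at the other. The summits of the replicates were 4 bp apart in the first of these regions and 26 bp in the other.

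**Figure D4:**
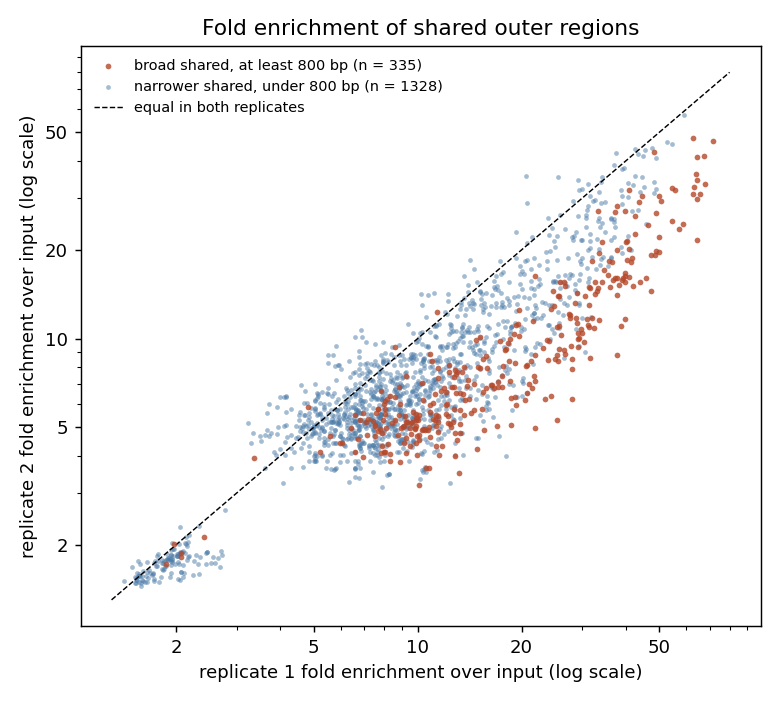
Fold enrichment over input in replicate 2 (best partner) against replicate 1 for 335 broad and 1328 narrower shared regions, on log axes with a dashed line for equal values. All but 5 broad regions lie below the line, and at a replicate 1 fold enrichment of 20 to 40 their replicate 2 median is 11.6, against 17.5 in the narrower regions.

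Broad regions had other replicate 1 regions close by more often than narrower ones. The gap from the edge of a broad region to the nearest other replicate 1 region had a median of 8047 bp (5208 to 13080), against 24304 bp for the narrower regions (21597 to 26409). Another region lay within 1000 bp of 98 broad regions (29.3%, 24.6% to 34.3%) and of 101 narrower ones (7.61%, 6.30% to 9.16%). With both lists limited to q below 1e-05, the medians were 14820 bp for the broad regions and 28560 bp for the narrower ones. That limit leaves fewer regions in the lists.

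Of the 98 broad regions with a neighbor within 1000 bp, 89 had one seen in replicate 1 alone (90.8%, 83.5% to 95.1%), against 63 of 101 narrower ones (62.4%, 52.6% to 71.2%). Over all replicate 1 regions only 28.0% were overlapped in replicate 2, as given above, so most regions of that list were seen in replicate 1 alone. A region of this kind lay within 1000 bp of 89 broad regions (26.6%, 22.1% to 31.5%) and of 63 narrower ones (4.74%, 3.73% to 6.02%). A shared region lay that close to 12 broad regions (3.58%, 2.06% to 6.16%) and to 43 narrower ones (3.24%, 2.41% to 4.33%), shares whose intervals overlap. The 105 neighbors of the broad regions that were seen in replicate 1 alone had medians of 268 bp in width, 4.33 in fold enrichment and 22.0 in summit fragments. For the 72 such neighbors of the narrower regions these medians were 298 bp, 4.46 and 24.0.

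**Figure D5:**
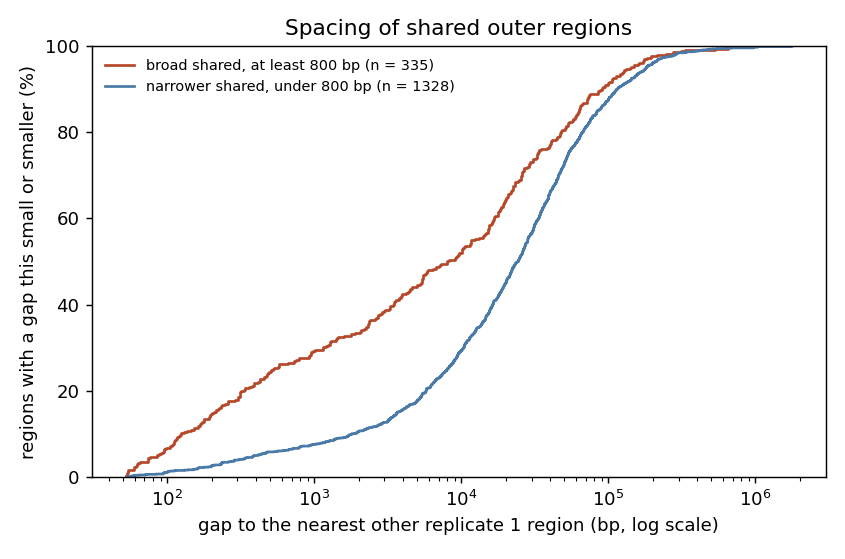
Share of regions (%) with another replicate 1 region within the gap on the x axis (bp, log scale) for 335 broad and 1328 narrower shared regions. At 1000 bp the curve of the broad regions stands at 29.3% and that of the narrower regions at 7.61%, and at 10000 bp they stand at 51.9% and 29.4%.

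The nearest broad region was a median of 468712 bp from a broad region (401175 to 550095) and 443924 bp from a narrower one (410327 to 487389), with overlapping intervals. Neighboring broad regions on the same chromosome end were separated by a median of 786367 bp (684150 to 857432, 295 pairs), and 17 of 335 had another broad region within 10000 bp (5.07%, 3.19% to 7.98%). A broad region lay that close to 2.79% of the narrower regions (2.03% to 3.82%). The closest pair lies at Chr09:7979317-7980536 and Chr09:7980591-7981561 with 54 bp between them. Its members had fold enrichments of 12.3 and 9.79 in replicate 1 and of 8.15 and 4.94 in replicate 2. They had a replicate 2 region each and none in common. The pair at Chr13:33988373-33989215 and Chr13:33991568-33992711 is 2352 bp apart, with fold enrichments of 7.44 and 8.41 in replicate 1 and of 5.27 and 5.19 in replicate 2.

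The remaining close pairs fell into a 10 kb stretch of chromosome 12 that stood apart by its input background. At Chr12:39184539-39186062, Chr12:39187347-39188609, Chr12:39191592-39192717 and Chr12:39193028-39194653 the local background was 42.8 to 48.9 times the genome background in replicate 1 and 48.9 to 63.8 times in replicate 2. Their fold enrichments were 1.87 to 2.07 in replicate 1 and 1.72 to 2.01 in replicate 2, on 271 to 343 fragments in replicate 1 and 237 to 287 in replicate 2. Another region of this kind, Chr15:47404174-47405147, had fold enrichments of 2.40 in replicate 1 and 2.13 in replicate 2. Regions at over 10 times the genome background thus made up 5 of 335 broad regions (1.49%, 0.639% to 3.45%) and 124 of 1328 narrower ones (9.34%, 7.89% to 11.0%). Without them the broad regions had a median replicate 2 fold enrichment of 7.36 and the narrower ones of 6.59.

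The set was spread over all 20 chromosomes, with 8 regions on chromosome 8 and 26 on chromosome 2 as the lowest and highest numbers. Broad regions made up 9.41% of the shared outer regions of chromosome 8 and 28.6% of those of chromosome 16. The low-coordinate ends held 161 broad regions and the high-coordinate ends 174. Single chromosomes were uneven, with 1 and 16 on chromosome 13, 1 and 15 on chromosome 20, and 20 and 3 on chromosome 15 at the low and the high end. The narrower shared regions of these chromosomes were uneven in the same direction, with 8 and 55 on chromosome 13, 9 and 46 on chromosome 20, and 57 and 15 on chromosome 15. From the chromosome end inward, in steps of 0.05 of its length, the broad share of shared regions was 23.4%, 17.9%, 21.7%, 16.9%, 22.7% and 15.2%. The 95% intervals of these shares all overlap.

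The 43 broad shared regions of the chromosome middles had values near those of the outer set. There, 27.9% had 2 or more partners (12 of 43, 16.7% to 42.7%), the summit lay a median of 37.0% of the width from the nearer edge (28.8% to 40.7%), and the median log2 ratio of replicate 2 over replicate 1 was -1.06 (-1.24 to -0.97). Each of these intervals contains the value of the outer set. The layout described here was thus not shown to differ between the outer and the middle parts.

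The 3 narrowest regions of the set, at Chr02:9699145-9699945, Chr04:429783-430587 and Chr04:52099433-52100242, are 801, 805 and 810 bp wide and had fold enrichments of 5.58, 7.91 and 25.4 in replicate 1 and of 4.69, 4.32 and 8.79 in replicate 2. The 3 widest shared regions below it, at Chr05:37445146-37445941, Chr05:2737750-2738544 and Chr09:43020642-43021435, are 796, 795 and 794 bp wide and had 11.2, 8.42 and 21.6 in replicate 1 and 7.31, 5.04 and 8.18 in replicate 2. All 6 had 1 replicate 2 partner. Their summits lay at 53.4%, 24.6% and 33.7% of the width inside the limit and at 36.6%, 60.6% and 66.9% outside it, counted from the low-coordinate edge. A limit of 600 bp would have given 521 broad regions.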

How the data were processed

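ChIP and input libraries were made with 15 PCR cycles from chromatin sheared to 100 to 500 bp, with 3 µg of antibody per immunoprecipitation. Per the submitters' processing notes, Bowtie 0.12.7 and MACS3 were used. The authors called narrow peaks at a q-value limit of 0.01 for each ChIP replicate separately. Read filters, duplicate handling and the fragment length were not given in the sources used here, and each can change the width and height of a region. The deposited fold enrichment is a ratio with a count of 1 added to both sides. The deposited −log10 p-value was used with it to recover whole fragment numbers and the input background of every summit (relative error up to 0.0001, up to 1500 fragments), which succeeded for 100% of the regions of both lists. The deposited −log10 q-value served as a stricter limit, and the deposited score repeats it and was not used. Total read depth was not used, so fragments at the summit give the depth behind each value.

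Chromosome length was taken as the highest region end in the lists. Samples were grouped by their titles, and each list was tied to its ChIP sample by the sample description. Regions named are, by rule, the 8 widest, the 8 with the highest mean fold enrichment, the 8 with the most replicate 2 partners (not all of these are described singly), the 4 closest pairs, and 3 on either side of the 800 bp limit. Chr15:47404174-47405147 was named after its values were seen. The set and these lists were chosen with earlier results of these data known. Functions were tested on simulated regions. Computations used pandas 2.3.3, numpy 2.4.6 and scipy 1.17.1 under Python 3.11.15, and plots matplotlib 3.10.9. No gene annotation of this build was used here.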

Additional observations from a re-analysis of the deposited data

How the results depend on the processing

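The 9 results were recomputed under 9 alternatives. Of the 81 values, 56 stayed within the interval of the reported value (or, for the number of regions, within 1.5 times), 23 moved outside it and 2 changed the order of broad and narrower regions. The ratio of replicate 2 over replicate 1 and its alternatives were added after seeing the data. No paired analysis was possible because no test was run and input values are only part of the peak calls, and leaving out a replicate removes the overlap that defines the set. With a width of at least 600 bp, there were 521 regions, 15.5% had 2 or more partners, the summit lay 36.6% of the width from the nearer edge, the summits of the replicates were 45.0 bp apart, the gap was 13918 bp and the log2 ratio was -0.91. With at least 1000 bp, the best partner was 595 bp wide and 29.6% had 2 or more partners. With summits within 100 bp, the best partner was 584 bp wide with a fold enrichment of 8.39 and a log2 ratio of -1.11, and by construction the summit distance was 36.0 bp and 0% had 2 or more partners that near. With q below 1e-05, 17.8% had 2 or more partners and the gap was 14820 bp. Limited to regions that reached a fold enrichment of 10 in replicate 1, the best partner was 641 bp wide, the log2 ratio was -1.16, and the replicate 2 fold enrichment was 9.22 in broad and 10.6 in narrower regions, the reverse of the reported order. With the lists exchanged, there were 90 regions, and their best replicate 1 partner was 1934 bp wide with a fold enrichment of 38.0. Their summits were 35.5 bp apart, against 26.0 bp in the narrower ones. The gap within replicate 2 was 37032 bp and the log2 ratio was -1.11. Of the 90 regions 0% had 2 or more partners, against 0.0598% of the narrower ones. Causes were not tested. Replicate 2 summits of the set rested on a median of 28 fragments, against 89 in replicate 1. In the narrower regions these medians were 29 in replicate 2 and 56 in replicate 1. Whether weak partners were missed in replicate 2 was not tested.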

Other observations

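Of the 8 broad regions with the highest mean fold enrichment, 7 had the summit beyond 70% of the width, counted from the low-coordinate edge. In the region at Chr01:5596796-5600531 it lay at 33.2%. These 8 are the top of a list taken from these data. Over the 43 broad regions that reached a fold enrichment of 40 in replicate 1, the summit was on the low-coordinate side in 16 (37.2%, 24.4% to 52.1%), an interval that includes equal sides. The orientation of genes at these positions was not analysed here.

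A further 176 broad regions of the outer chromosome parts were seen in replicate 1 alone. Their medians were 968 bp in width, 6.85 in fold enrichment and 34.0 in summit fragments. Their summit lay a median of 32.4% of the width from the nearer edge (30.1% to 34.3%), and the shared broad regions had 33.7% (32.3% to 35.4%). Off-centre summits were thus found at like size in broad regions that replicate 2 did not list.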
